A study of Mus musculus with 30 samples.

Results

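Astrocytes of the spinal cord clear transmitter, water and ions from the extracellular space and are joined to each other by gap junctions, and 10 genes that mark these resting duties were followed in the denervated cervical spinal cord of mice after a cortical stroke. The 10 genes were picked by name (Slc1a2, Slc1a3, Slc6a11, Aqp4, Gja1, Gjb6, Glul, Aldh1l1, Aldoc and S100b), and all 10 were found among the 16995 genes of the table of values. Every gene was measured in every animal, and none was removed by a filter on low values.

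Astrocytes take up synaptic glutamate through the transporters GLT-1 (Slc1a2) and GLAST (Slc1a3), turn it into glutamine with glutamine synthetase (Glul), and take up GABA through GAT-3 (Slc6a11). Water crosses their endfeet through aquaporin-4 (Aqp4), and connexin 43 (Gja1) and connexin 30 (Gjb6) form the channels that couple them into a network. Aldh1l1, a folate enzyme, Aldoc, a glycolytic aldolase, and S100b, a calcium-binding protein, are used as markers of the cell type. In injured nervous tissue this group of genes is often read beside Gfap, the intermediate filament of reactive astrocytes.

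Adult female C57BL/6 mice, 2 to 3 months old, received a photothrombotic stroke of the right sensorimotor cortex (Rose Bengal, then light through the skull), and the mice named Ctrl in the sample labels received the same operation without light and are called sham here. The intermediate layer of segments C5/C6 on the denervated side was trimmed out by hand, so each sample is bulk tissue that holds neurons, oligodendrocytes, microglia and vessels as well as astrocytes. Total RNA depleted of ribosomal RNA was sequenced at 4, 7, 14, 28 and 42 days post-injury (dpi), with 4 animals at 4 dpi and 5 in every other group, 29 in all. The animals carry no transgene, all had analgesia in the drinking water after surgery and antibiotics where necessary, each was sampled once, and the unit numbers in their names are nearly nested in the time points. Animals were chosen for sequencing from a larger operated cohort by scores for cortical ablation, motor deficit, dissected tissue and RNA quality and quantity. The paper left a 4 dpi sample out of its differential expression analysis as an outlier in that testing, and does not name the animal. No values were given for animal A9-3, labelled 4 dpi, so it could not be analysed here.

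The values are normalized CPM (read counts scaled to library size and between libraries), deposited by the authors and rounded to 0.1. Their sum per library ran from 714597 to 2256910, and from 583132 to 628325 without the 10 highest genes, so a value is not a share of a fixed total. The read totals behind them are unknown, so the precision of a value rests on the spread between animals. A few libraries stood apart. The ribosomal RNA gene Rn18s-rs5 lay above 200000 in 8 libraries, 4 of the 5 at 28 dpi among them. A long-to-short shift was computed for each library as the median log2 deviation of 786 genes with transcripts over 8 kb minus that of 1241 genes with transcripts up to 2 kb. It lay at 0.68, 0.68 and 0.68 in animals A3-3, A4-3 and A4-4 of the 28 dpi group, against 0.10 and 0.04 in the 28 dpi animals A3-1 and A4-1 and -0.36 to 0.32 in sham animals. The 28 dpi values of the 10 genes are therefore also given without A3-3, A4-3 and A4-4, where 0 of all genes are called against sham.

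Per kilobase of the longest annotated transcript, Glul and Aldoc were the most abundant of the 10 messages in sham animals, and Slc1a3 and Aldh1l1 the least. Glul stood at 350 ± 17.7 normalized CPM per kb (SD, n = 5) and Aldoc at 320 ± 31.3, and the ranges of these neighbours overlapped. Slc1a2 (170 ± 11.7) and S100b (140 ± 25.8) followed, again with overlapping ranges. Aqp4 (67.5 ± 5.05) and Slc6a11 (51.3 ± 1.49) each stood apart from the next gene in the order, while Gja1 (34.4 ± 2.65) and Gjb6 (26.6 ± 3.44) overlapped. Aldh1l1 (10.4 ± 0.735) and Slc1a3 (9.27 ± 0.890) came last and overlapped, so that on this scale the message of GLT-1 exceeded that of GLAST in every sham animal.

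At 4, 7, 14 and 42 dpi, 0 of the 10 genes differed from sham at an adjusted p under 0.05 (limma, Benjamini-Hochberg adjustment over 16995 genes), where 0.106%, 0.0294%, 0.00588% and 0.0235% of all genes did. At an unadjusted p under 0.05 the counts were 2, 0, 0 and 2 of 10, where 5.14%, 5.84%, 11.6% and 14.8% of all genes stood. At 28 dpi, 6 of 10 genes were called, where 24.9% of all genes were. Of these, 5 fell (Gjb6, Aldoc, Aqp4, Glul and Aldh1l1), where 13% of all genes were called lower, and 1 rose (Slc1a2), where 11.9% were called higher. The median log2 fold change of the 10 genes at 28 dpi was -0.22, beside -0.00 over all genes. No member passed a fold limit of 1.5, which 4.64% of all genes passed together with the adjusted p. In 4 genes (Aqp4, Slc1a2, Glul and Aldh1l1) the 5 animals at 28 dpi lay wholly outside the range of the 5 sham animals, as did 9.9% of all genes. An F test over all groups called 7 of 10 genes, leaving out Gja1, Slc1a3 and Slc6a11, beside 31.6% of all genes. Without animals A3-3, A4-3 and A4-4, 0 of 10 genes were called at 28 dpi, as were 0 of all genes tested by limma, with 2779 at an unadjusted p under 0.05. In bulk tissue, fewer astrocytes and less RNA per astrocyte cannot be told apart.

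**Figure D1:**
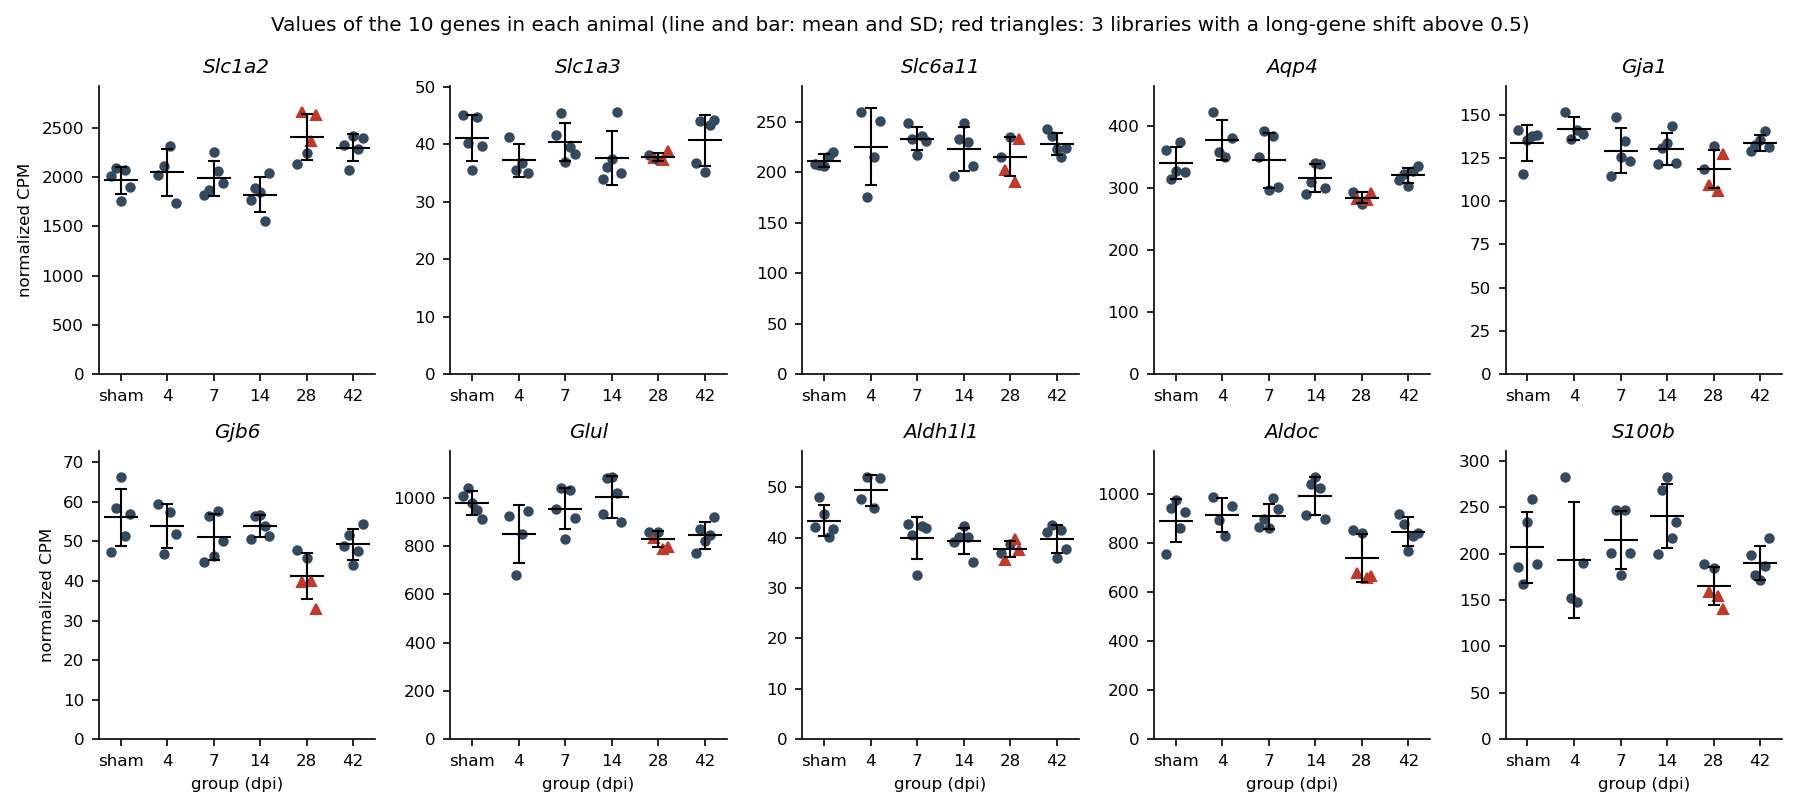
Normalized CPM (y axis, from 0) of each of the 10 genes in every animal, by group (x axis, sham and days post-injury), with the mean and SD as a line and bar. Red triangles are the 28 dpi libraries A3-3, A4-3 and A4-4, in which Aldoc lay between 658.3 and 677.8, below every other animal, while Aqp4 was low in all 5 animals at 28 dpi, between 273.9 and 294.0.

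Of the glutamate transporters, Slc1a2 rose at 28 dpi and Slc1a3 did not pass the test at any time point. Slc1a2 (ENSMUSG00000005089, mm10 chr2:102658659-102790784, plus strand), the transporter that carries most glutamate uptake, read 2012.9, 2089.1, 1763.1, 2073.8 and 1904.4 normalized CPM in the sham animals. At 28 dpi it read 2136.4, 2659.4, 2241.0, 2366.7 and 2632.5, all above the highest sham animal. The log2 fold change was 0.29 ± 0.09 (SE; limma, adjusted p = 0.0204), a mean at 122% of sham. The 2 highest animals were A3-3 and A4-4, and without A3-3, A4-3 and A4-4 the log2 fold change was 0.16 ± 0.11 (limma, adjusted p = 0.522). At 42 dpi 4 of 5 animals lay above the sham range, with a log2 difference of 0.22 ± 0.09 (limma, adjusted p = 0.228). Slc1a2 shares 189 exon bases with Gm13872, an antisense gene read at 2.2 to 9.1 normalized CPM. The library kit does not mark strand, so reads of these overlapping genes cannot be told apart there.

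Slc1a3 varied little. Its sham animals read 45.1, 40.3, 35.6, 44.8 and 39.8 normalized CPM and the 28 dpi animals 38.1, 37.7, 37.2, 37.3 and 38.9. The 28 dpi animals lay inside the sham range, and their SD of 0.691 was below that of any other group. The log2 difference from sham lay between -0.14 and -0.02 across the 5 time points, and the smallest limma adjusted p among them was 0.301. The GABA transporter Slc6a11 also stayed short of the test at every time point, with log2 differences between 0.02 and 0.14. Its sham animals read 208.5, 207.2, 206.6, 216.4 and 220.3, a narrow range that 4 of 5 animals exceeded both at 7 dpi (249.4, 232.9, 217.2, 235.9 and 231.2) and at 42 dpi (243.3, 235.7, 223.6, 215.0 and 224.5). Neither difference passed limma, at 0.14 on the log2 scale for 7 dpi (adjusted p = 0.884) and 0.11 ± 0.08 for 42 dpi (adjusted p = 0.564). Without A3-3, A4-3 and A4-4 the 28 dpi difference was -0.12 for Slc1a3 and 0.09 for Slc6a11 (limma, adjusted p = 0.628 and 0.714).

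Aqp4, the water channel of the endfoot, fell at 28 dpi. In the sham animals it read 361.5, 315.4, 327.6, 375.0 and 327.0 normalized CPM. At 28 dpi it read 294.0, 283.2, 273.9, 280.4 and 292.9, and every animal lay below the lowest sham animal. The log2 fold change was -0.26 ± 0.07 (limma, adjusted p = 0.0116), to 83.5% of the sham mean. The values of A3-1 and A4-1, the libraries without the length shift, were the highest and the lowest of the group. Without the 3 shifted libraries the log2 fold change was -0.26 ± 0.10, of the same size, with a limma adjusted p of 0.193 on 2 animals. Before that, at 4 dpi, Aqp4 read 422.8, 357.8, 350.2 and 380.7, within or above the sham range, with a log2 difference of 0.15 ± 0.08 (limma, adjusted p = 0.996). At 42 dpi the values were 313.4, 323.1, 304.4, 328.4 and 335.8, with 2 of 5 below the sham range (limma, log2 difference -0.09 ± 0.07, adjusted p = 0.621).

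Of the 2 gap junction genes, 1 was called at 28 dpi. Gjb6, connexin 30, showed the largest fall of the 10 genes with all 29 animals, though not without A3-3, A4-3 and A4-4, where Aqp4 stood at -0.26 and Gjb6 at -0.25. Its sham animals read 47.3, 58.4, 66.3, 51.4 and 57.0 normalized CPM, and its 28 dpi animals 47.8, 39.8, 45.9, 40 and 33.0. The groups overlapped in 1 animal (A3-1). The log2 fold change was -0.44 ± 0.09 (limma, adjusted p = 0.00237), to 73.6% of the sham mean, and it was -0.25 ± 0.11 without A3-3, A4-3 and A4-4 (limma, adjusted p = 0.264). Gja1, connexin 43, read 141.2, 115.6, 135.4, 137.8 and 138.2 in sham animals and 118.8, 109.5, 132.1, 106.1 and 127.0 at 28 dpi. These groups overlapped, and the log2 difference of -0.17 ± 0.07 did not pass (limma, adjusted p = 0.0642), and it was -0.09 without A3-3, A4-3 and A4-4 (limma, adjusted p = 0.650). With the unit as a random block Gja1 was called, also at -0.17 (limma, adjusted p = 0.0463). Whether the change of Gjb6 differed from that of Gja1 was tested as a ratio within each animal, and the ratio did not pass the test (exact permutation test of 5 against 5 animals, p = 0.143, 0.357 after adjustment over 20 tests).

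Of the enzymes, Glul, Aldh1l1 and Aldoc fell at 28 dpi. Glul, which makes glutamine from glutamate and ammonia, read 1010.4, 1039.8, 978.7, 948.7 and 914.3 normalized CPM in sham animals and 859.3, 834.1, 860.2, 790.6 and 798.2 at 28 dpi, with no overlap. The log2 fold change was -0.24 ± 0.08 (limma, adjusted p = 0.0290), and -0.18 ± 0.11 without A3-3, A4-3 and A4-4 (limma, adjusted p = 0.406). At 42 dpi it read 771.4, 871.2, 822.4, 845.8 and 922.4, with 4 of 5 animals below the sham range and a log2 difference of -0.21 ± 0.08 that did not pass (limma, adjusted p = 0.211). Glul shares 116 exon bases with Teddm2 on the other strand, which read between 1.2 and 3.3 normalized CPM.

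Aldh1l1, which oxidizes a folate and is used as a pan-astrocyte marker, had its highest group mean at 4 dpi and its lowest at 28 dpi. Sham animals read 42.0, 48.0, 44.6, 40.2 and 41.7 normalized CPM. The 4 dpi animals read 47.7, 52.0, 45.9 and 51.9 (limma, log2 difference from sham 0.19 ± 0.07, adjusted p = 0.714), and the 28 dpi animals 36.9, 35.6, 38.7, 39.7 and 37.5. Aldh1l1 shares 499 exon bases with Gm15756, an antisense gene, and 105 with Gm45901, neither of which is in the table, so reads from these could not be told apart. All 28 dpi animals lay below all sham animals, and the fall measured -0.20 ± 0.07 in log2 units (limma, adjusted p = 0.0377). Without A3-3, A4-3 and A4-4 it was -0.19 ± 0.09 (limma, adjusted p = 0.306).

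Aldoc, the aldolase of astrocytes, split the 28 dpi group. Sham animals read 752.6, 940.5, 973.1, 860.9 and 925.6 normalized CPM. At 28 dpi the animals A3-1 and A4-1 read 853.8 and 837.7, inside the sham range, and A3-3, A4-3 and A4-4 read 677.8, 658.3 and 662.8, below it. The log2 fold change of -0.27 ± 0.08 (limma, adjusted p = 0.0177) became -0.07 ± 0.10 without the latter 3 animals (limma, adjusted p = 0.783). S100b, a secreted calcium-binding protein, varied widely between animals of a group, with a coefficient of variation from 9.54% at 42 dpi to 32.3% at 4 dpi. It read 185.4, 167.3, 234.4, 259.4 and 188.7 in sham animals and 189.1, 158.2, 184.6, 154.6 and 140.7 at 28 dpi, and its log2 difference of -0.31 ± 0.14 did not pass (limma, adjusted p = 0.0963), and it was -0.13 without A3-3, A4-3 and A4-4 (limma, adjusted p = 0.788).

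Across the genome the change at 28 dpi followed transcript length, and the transcripts of the 10 genes run from 1.48 to 11.6 kb. Among genes with a mean value of at least 10, the median log2 fold change at 28 dpi was -0.40 for transcripts up to 1 kb, -0.29 from 1 to 2 kb, -0.14 from 2 to 4 kb, -0.01 from 4 to 6 kb, 0.09 from 6 to 8 kb, 0.15 from 8 to 12 kb and 0.27 above 12 kb. Slc1a2, with the longest transcript of the 10 at 11.6 kb, lay at the upper quartile of its class (0.29). Gjb6 (2.11 kb) lay 0.30 below the median of its class, Aqp4 (5.05 kb) 0.25 below and Aldh1l1 (4.18 kb) 0.19 below, all 3 beyond the lower quartile. Aldoc (2.79 kb) and Glul (2.79 kb) lay at or just below the lower quartile of theirs (-0.24), and S100b (1.48 kb) and Gja1 (3.89 kb) were within 0.04 of their class medians. When each library was corrected for transcript length and GC content before the fit, the rise of Slc1a2 shrank to 0.06 ± 0.07 (limma, adjusted p = 0.567). The 5 falls stayed past the test, with Gjb6 at -0.39, Aqp4 at -0.32, Aldoc at -0.26, Aldh1l1 at -0.24 and Glul at -0.23 (limma, adjusted p between 0.00156 and 0.0294). In that fit 25.4% of 16919 genes were called, 16.1% lower and 9.26% higher, against 13% lower and 11.9% higher without the correction.

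**Figure D2:**
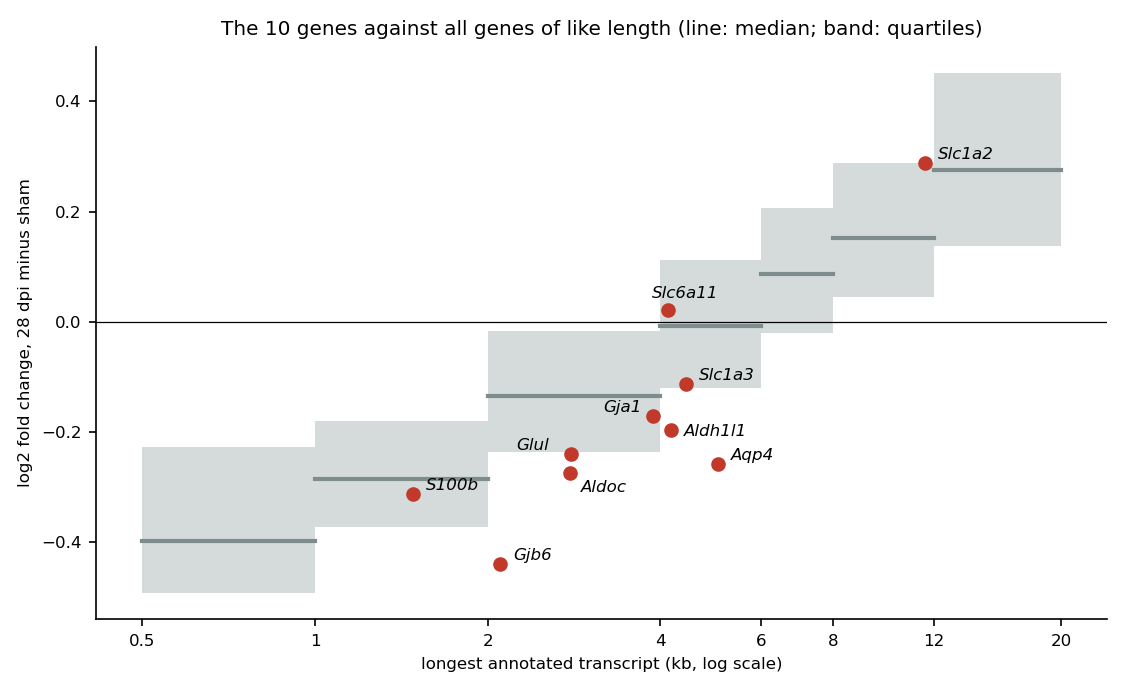
Log2 fold change at 28 dpi against sham (y axis) over the longest annotated transcript in kb (x axis, log scale, with the outer classes drawn from 0.5 and to 20 kb). Grey lines and bands are the median and quartiles of all genes with a mean value of at least 10 in each length class, and red points are the 10 genes: Slc1a2 sits at the edge of its class and Gjb6, Aqp4 and Aldh1l1 below the bands of theirs.

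**Figure D3:**
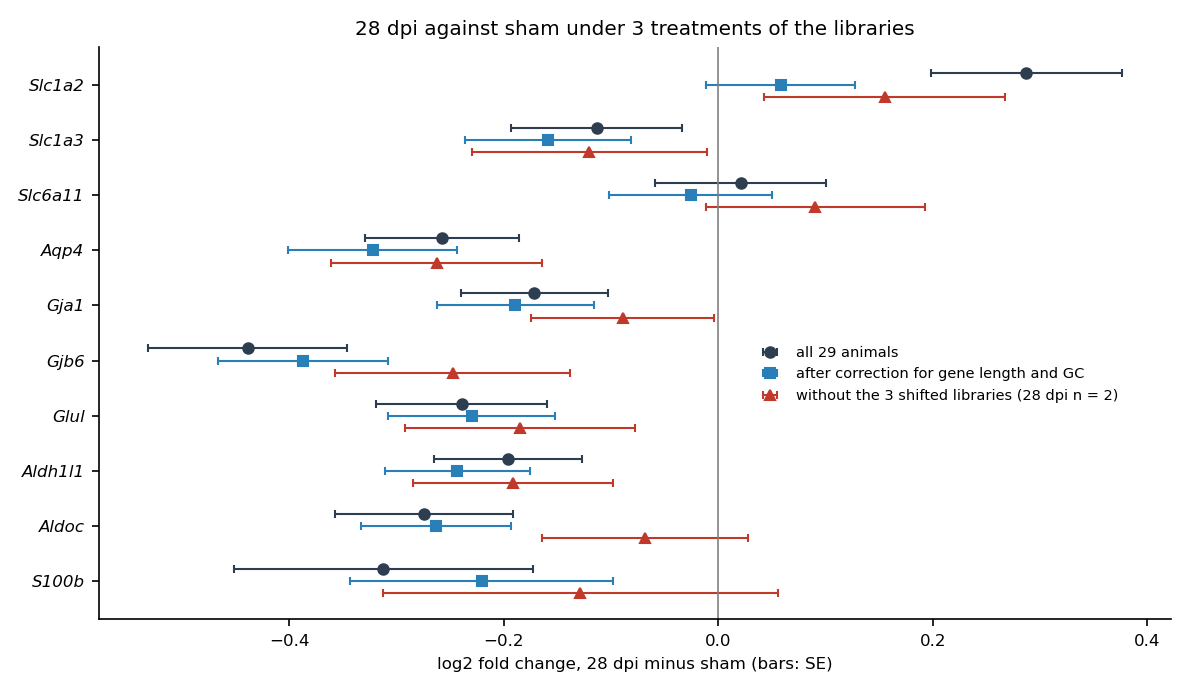
Log2 fold change at 28 dpi against sham (x axis, bars are the SE) of the 10 genes in all 29 animals (dark circles), after correction for transcript length and GC content (blue squares) and without the libraries A3-3, A4-3 and A4-4 (red triangles, 2 animals at 28 dpi). Aqp4 lies between -0.32 and -0.26 and Aldh1l1 between -0.24 and -0.19 in all 3, Slc1a2 moves from 0.29 to 0.06 after the correction, and Aldoc moves from -0.27 to -0.07 without the 3 libraries.

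Library by library, the value of several of these genes moved with the long-to-short shift. Over the 29 animals, after group means were subtracted, Pearson's r with the shift was -0.89 for Aldoc, -0.66 for Gjb6, -0.63 for S100b and 0.61 for Slc1a2. It was -0.47 for Slc6a11, -0.45 for Gja1, -0.29 for Glul, -0.23 for Aldh1l1, -0.20 for Aqp4 and 0.08 for Slc1a3. These are descriptions over animals that share group and library preparation. With Rn18s-rs5 the within-group r lay between -0.47 (Gja1) and 0.12 (Slc1a2). With Rn18s-rs5 as a covariate, 0 of 10 genes were called at 28 dpi, as were 0 of all 16995 genes by limma (3751 at an unadjusted p under 0.05), with Gjb6 at -0.40 ± 0.12 (limma, adjusted p = 0.0658) and Aqp4 at -0.24 ± 0.09 (limma, adjusted p = 0.120). The part of RNA quality in these differences was not tested.

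**Figure D4:**
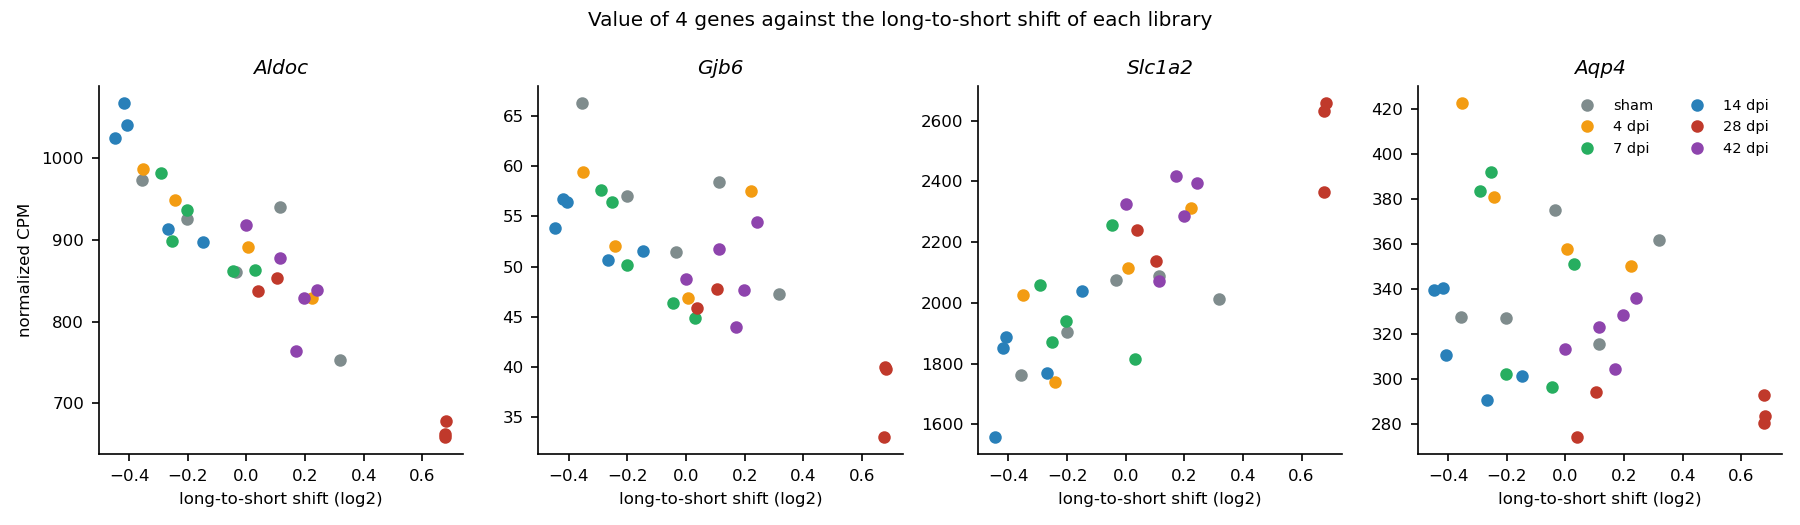
Normalized CPM (y axes, not starting at 0) of Aldoc, Gjb6, Slc1a2 and Aqp4 against the long-to-short shift of each library (x axis, log2), 1 point per animal, coloured by group. Aldoc runs down and Slc1a2 runs up along the shift over the 29 animals, and the 3 points at 0.68 are A3-3, A4-3 and A4-4 of the 28 dpi group.

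Against the other stroke groups, which do not share the sham animals, 28 dpi differed from 4 dpi in 5 of 10 genes (19.9% of all genes called), from 7 dpi in 5 (31.2%), from 14 dpi in 5 (43%) and from 42 dpi in 0 (1.94%). All 4 comparisons use the same 5 animals at 28 dpi. The largest difference from 4 dpi was that of Aqp4, at -0.40 ± 0.08 (limma, adjusted p = 0.00407), with Aldh1l1 at -0.38, Gjb6 at -0.39, Aldoc at -0.31 and Gja1 at -0.26 also lower at 28 dpi. S100b was lower at 28 dpi than at 14 dpi without overlap, at 199.5, 268.5, 282.6, 217.4 and 234.3 normalized CPM against 189.1, 158.2, 184.6, 154.6 and 140.7 (limma, log2 difference -0.54 ± 0.14, adjusted p = 0.00290). Slc1a2 was higher than at 14 dpi by 0.40 ± 0.09 (limma, adjusted p = 0.000728). The long-to-short shifts of the 14 dpi libraries ran from -0.45 to -0.15, the lowest group median (-0.41), and those of the 28 dpi libraries were all above 0. After correction for length and GC content, S100b, Gjb6, Aldoc and Glul stayed called against 14 dpi, Aqp4 joined them and Slc1a2 did not, where 38.9% of all genes were called. With A3-3, A4-3 and A4-4 left out, 0 of 10 genes and 7.61% of all genes were called against 14 dpi, with S100b at -0.35, Slc1a2 at 0.27, Aldoc at -0.22, Glul at -0.22 and Gjb6 at -0.20 (limma, adjusted p between 0.121 and 0.245). Against 42 dpi, 9 of 10 genes were lower at 28 dpi and 4 had an unadjusted p under 0.05, as did 21.1% of all genes, with a smallest limma adjusted p of 0.110 (Gjb6, log2 difference -0.26 ± 0.09).

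The 4 ratios, 2 of transporters, 1 of connexins and 1 of Aqp4 to Aldh1l1, were taken within each animal, which removes any scaling of a whole library. Slc1a2 to Slc1a3 stood at 48.0 ± 2.80 in sham animals (range 44.6 to 51.8) and at 63.6 ± 5.76 at 28 dpi (range 56.1 to 70.5), with no overlap. On the log2 scale A3-1 and A4-1, without the length shift, stood at 5.79 and 5.89, also above the sham range. The log2 difference was 0.40 (exact two-sided permutation test, p = 0.00794, the smallest that 5 against 5 animals can give), and 0.159 after adjustment over the 20 ratio tests, the lowest adjusted value that 1 ratio on its own could reach with 5 against 5 animals. With length and GC content corrected for, it was 0.22 (exact permutation p = 0.0238, adjusted 0.370). Slc6a11 to Slc1a3 was higher than sham on average at each of the 5 time points, by 0.12 to 0.22 on the log2 scale, with exact permutation p between 0.0635 and 0.270 and none passing after adjustment. Gja1 to Gjb6 went from 2.42 ± 0.426 in sham to 2.92 ± 0.537 at 28 dpi, with overlapping ranges. Aqp4 to Aldh1l1 stood at 7.94 ± 1.07 in sham and 7.57 ± 0.465 at 28 dpi, a log2 difference of -0.06 that did not pass the exact permutation test (adjusted p = 0.714).

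**Figure D5:**
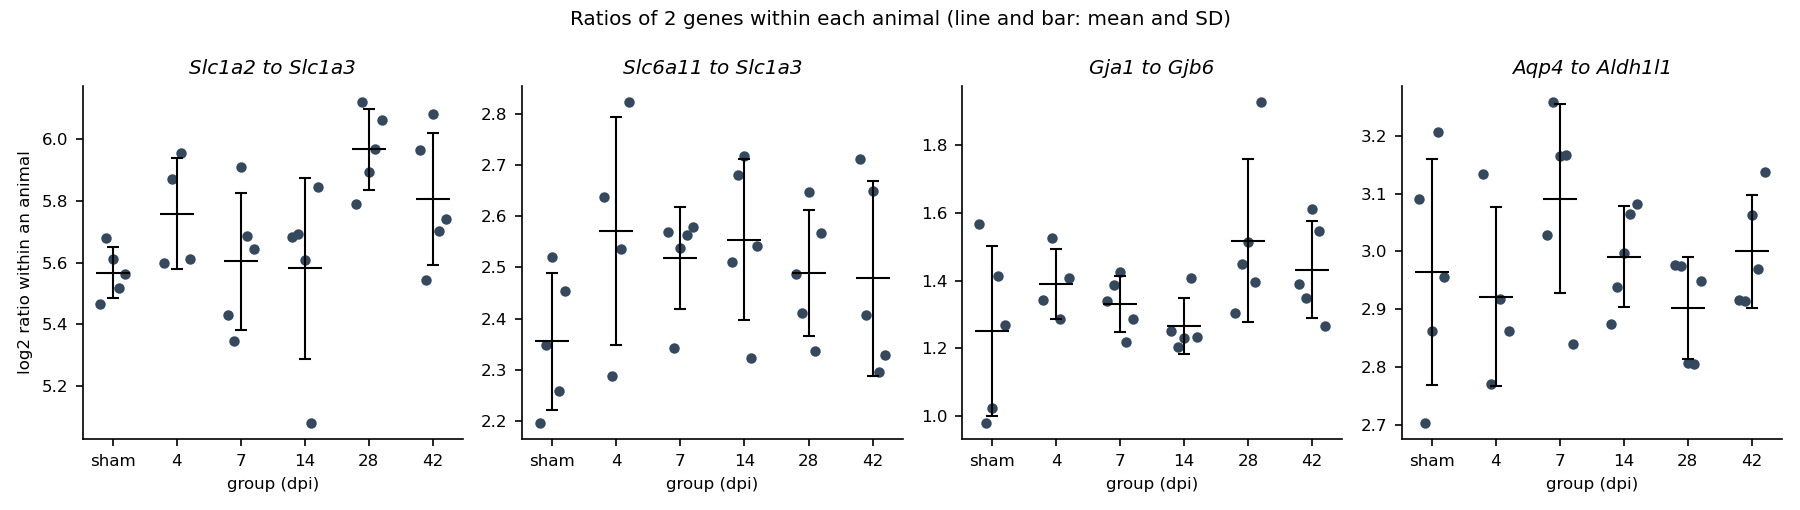
Log2 ratio of a pair of genes within each animal (y axis) by group (x axis, sham and days post-injury), for 4 pairs, 1 point per animal with mean and SD. Slc1a2 to Slc1a3 lies between 5.46 and 5.68 in sham animals and between 5.79 and 6.12 at 28 dpi, and Aqp4 to Aldh1l1 overlaps between groups throughout.

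Of the 45 pairs among the 10 genes, 34 had a positive r after group means were subtracted, with a median of 0.26 over 29 animals. That is 75.6% of pairs, beside 50.4% of all pairs among the 8861 genes with a mean value of at least 10, and several of the 10 moved with the long-to-short shift, whose part in these r values was not tested. The highest was Gjb6 with Aldoc at 0.73, followed by Aqp4 with Slc1a3 at 0.71 and Aqp4 with S100b at 0.66. Slc1a2 had a mean r of -0.33 with the other 9, and the lowest single pair was Slc1a2 with Aldh1l1 at -0.53. Over all 29 animals, groups included, the genes outside the list whose pattern was closest to the mean z-score of the 10 were P4hb (r = 0.85), Mmd2 (0.83), Stmn1 (0.82), Nadk2 (0.82) and Dynlt3 (0.81). Of the single genes, Slc1a2 was followed most closely by Dnm3 (r = 0.97), Aldoc by Rpl3 (0.95), S100b by Slc25a1 (0.93), Gjb6 by Skp1a (0.87) and Glul by Efhd1 (0.85). Aqp4 was closest to Mmd2 (0.76), Slc1a3 to Smek2 (0.73), Gja1 to Scamp4 (0.71), Slc6a11 to Gstt3 (0.70) and Aldh1l1 to Agt (0.67). The longest transcript of Dnm3 measures 7.52 kb and that of Rpl3 1.88 kb.

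Gjb6 and S100b varied together within groups (r = 0.56, 1 of 11 pairs above 0.5) and are shown with the 250 bases before their transcription starts, taken from RefSeq on GRCm38.p6, each 5′ to 3′ on the strand of the gene. Both also moved with the long-to-short shift (within-group r = -0.66 and -0.63), and whether they share a regulator was not tested. Capitals mark the half-site TTGGCA of nuclear factor I (NFI), whose family member Nfia is a regulator of astrocyte genes. The windows are chr14:57133612-57133861 (minus strand) for Gjb6 and chr10:76253586-76253835 (plus strand) for S100b.
Gjb6: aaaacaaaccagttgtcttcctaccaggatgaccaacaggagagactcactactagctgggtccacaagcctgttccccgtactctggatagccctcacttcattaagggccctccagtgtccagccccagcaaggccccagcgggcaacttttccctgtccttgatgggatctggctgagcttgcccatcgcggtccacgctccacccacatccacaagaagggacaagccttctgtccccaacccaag
S100b: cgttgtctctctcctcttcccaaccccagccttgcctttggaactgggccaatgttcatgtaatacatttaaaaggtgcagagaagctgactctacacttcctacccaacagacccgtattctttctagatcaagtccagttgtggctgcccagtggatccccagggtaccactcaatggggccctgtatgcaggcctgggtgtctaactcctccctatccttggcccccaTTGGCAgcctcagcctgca
S100b holds 1 copy in the bases before its start, and Gjb6 holds none. Promoter windows of 300 bases, 250 before and 50 after the start, were at hand for 9 of the 10 genes, all but Aqp4. Aldoc had 2 windows, which makes 10. On either strand 2 of these 10 windows held TTGGCA (1 of Aldoc and that of S100b), where 14.1% of 32851 promoters held it. The letters ACAATG and ACAAAG, which SOX factors can bind, were in 0 of the 10 windows, where 12.6% and 18.7% of promoters held them. TATAAA was in 1 (Slc1a3), where 13.6% held it.

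Partner genes of the same pathways showed both directions at 28 dpi and, Gfap aside, no call at the other time points. Their counts at 28 dpi stand beside 13% of all genes called lower and 11.9% called higher, and every call among them was lost without A3-3, A4-3 and A4-4, as it was for all genes. Among 12 partners of glutamate and glutamine handling, 0 rose and 2 fell at 28 dpi, Got1, an aspartate aminotransferase (limma, log2 fold change -0.23, adjusted p = 0.0167), and Glud1, glutamate dehydrogenase (-0.16, adjusted p = 0.0274), with a list median of -0.08. Among 7 partners for GABA and glycine, only Slc6a5, the neuronal glycine transporter GlyT2, was called, and it rose by 0.30 (limma, adjusted p = 0.0339), with a list median of -0.11. Among 8 potassium and ion partners, 3 rose and 1 fell, with a list median of -0.03. Kcnj10, the Kir4.1 channel that buffers potassium, rose by 0.48 ± 0.14 (limma, adjusted p = 0.0132), from 269 ± 30.1 normalized CPM in sham to 375 ± 47.2. Atp1b2, a sodium pump subunit of glia, rose by 0.80 ± 0.16 (limma, adjusted p = 0.00172), from 139 ± 19.9 to 243 ± 39.8, with all 5 animals above the sham range in both genes. Kcnk1, a leak channel, fell by 0.31 (limma, adjusted p = 0.00717). Kcnj10 and Atp1b2 also passed after correction for length and GC content, at 0.38 and 0.77 (limma, adjusted p = 0.0341 and 0.00146), as did Got1, Glud1 and Kcnk1, while Slc6a5 moved to 0.15 and was not called (adjusted p = 0.189). Without A3-3, A4-3 and A4-4, Kcnj10 stood at 0.49 and Atp1b2 at 0.73, not called (limma, adjusted p = 0.182 and 0.118).

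Of the 9 genes that anchor Aqp4 at the endfoot and were in the table, 1 rose at 28 dpi, Dag1 (dystroglycan, log2 fold change 0.26, limma, adjusted p = 0.0109), and 0 fell, with a list median of 0.05. Of 10 other connexins and pannexins, Panx2 rose by 0.31 (limma, adjusted p = 0.0429) and Gjc3, a connexin of oligodendrocytes, fell by 0.27 (limma, adjusted p = 0.00923), with a list median of -0.14. Among 18 genes of lactate, glucose and glycolysis handling, 5 fell and 0 rose, with a list median of -0.14, led by Ldha (lactate dehydrogenase, -0.36), Bsg (basigin, -0.33) and Gapdh (-0.32), with limma adjusted p of 0.00920, 0.0241 and 0.0354. Without A3-3, A4-3 and A4-4 these stood at -0.16, -0.08 and -0.01, not called by limma (adjusted p = 0.518, 0.818 and 0.981). After the length and GC correction Dag1 moved to 0.15 and was not called (limma, adjusted p = 0.0653), and Panx2, Gjc3, Ldha, Bsg and Gapdh stayed called. In that fit the anchoring gene Dmd (dystrophin) was called lower, at -0.24 (limma, adjusted p = 0.00281), where 16.1% of all genes were. Without A3-3, A4-3 and A4-4, and uncorrected, Dmd stood at -0.07 (limma, adjusted p = 0.760). Among the 5 relatives of S100b in the table, 0 were called, the smallest unadjusted p being that of S100a1 at 14 dpi (limma, log2 difference 0.57, adjusted p = 0.381).

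Of 18 other genes of astrocyte identity, 2 were called higher and 3 lower at 28 dpi, where 11.9% of all genes were called higher and 13% lower, and the list median was -0.21. The 3 lower genes, named here after their values were seen, were Cpe at -0.36, Id4 at -0.34 and Clu at -0.23 (limma, adjusted p = 0.00171, 0.0147 and 0.0384). The transcription factors Sox9 and Nfia rose by 0.70 ± 0.13 and 0.55 ± 0.12 (limma, adjusted p = 0.00139 and 0.00333), and Sox9 went from 7.82 ± 0.856 normalized CPM to 13.1 ± 2.05. Without A3-3, A4-3 and A4-4, Sox9 stood at 0.65 and Nfia at 0.40, not called (limma, adjusted p = 0.109 and 0.207). Cpe stood at -0.18, Id4 at -0.24 and Clu at -0.05 in that fit, also not called (limma, adjusted p = 0.265, 0.367 and 0.871). After the length and GC correction Clu moved to -0.15 and was not called (limma, adjusted p = 0.0520). Cpe (-0.31), Id4 (-0.36), Sox9 (0.64) and Nfia (0.36) stayed called after that correction. Of the reactive genes, 11 were in the table and Gfap was the only one called at any time point. It rose at 4 dpi by 1.18 ± 0.25 (limma, adjusted p = 0.0480), from 183 ± 83.2 to 399 ± 134 normalized CPM. At that time point 0 of the 10 homeostatic genes were called, where 0.106% of all genes were. At 28 dpi Gfap stood at 189 ± 41.0, a log2 difference of 0.14 (limma, adjusted p = 0.697).

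Some markers of other cells were also called at 28 dpi, in the same libraries, where 13% of all genes were called lower and 11.9% higher. Of 7 oligodendrocyte markers, 5 fell, led by Mal, Mobp and Mog (-0.50, -0.47 and -0.44), and their summed value ranged from 4618 to 6780 normalized CPM at 28 dpi against 6446 to 9545 in sham. Of 7 neuron markers, 1 fell (Snap25, -0.30), with sums from 3456 to 3899 against 3693 to 5264. Of 6 microglia markers, 1 rose (Cx3cr1, 0.34), with sums from 66.0 to 98.5 against 74.0 to 83.4. Flt1 among 6 endothelial and pericyte markers rose by 0.36, Col1a1 among 5 meningeal and fibroblast markers by 0.61 and Alas2 among 5 blood markers by 0.91, while Gpr17 among 4 oligodendrocyte precursor markers fell by 0.34. Of 4 ependymal markers and 1 Schwann cell marker in the table, 0 were called, and Ncmap, the Schwann cell gene, read 0.9 to 2.6 normalized CPM over all animals. After the length and GC correction Cx3cr1 (0.27), Flt1 (0.22) and Col1a1 (0.50) were not called (limma, adjusted p = 0.0667, 0.152 and 0.0565). None of these markers was called without A3-3, A4-3 and A4-4, with Mal at -0.36, Mobp at -0.27, Mog at -0.25 and Snap25 at -0.08. The part of tissue composition in the differences of the 10 genes was not tested.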

How the data were processed

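RNA of 29 mice (5 sham, 4 at 4 dpi and 5 at each later time point) was analysed from 1 deposited table of 16995 genes. The authors quantified reads with SALMON and Tximport on mm10, and the submitters' processing notes name edgeR 3.14.0 and R 3.4.1. The deposited values are a score, normalized CPM rounded to 0.1, and no read counts were used here, so the depth is unknown. The deposited columns of the authors' own comparisons (fold changes and p-values) were not used.

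Values were tested as log2(value + 0.5) with limma 3.58.1 in R 4.3.3, with 1 mean per group, a trend and a shared spread. Fold changes are on this scale, which understates changes of low genes. Benjamini-Hochberg adjustment ran over all 16995 genes for each contrast, and a gene was called at an adjusted p under 0.05. Ratios were tested by exact two-sided permutation. Code was tested on simulated data. Transcript lengths came from GENCODE M21 (GRCm38) and were found for 99.6% of genes. The 10 genes and the lists were chosen with earlier results of these data known, and 152 of 165 listed genes were in the table. From each list, up to 3 called genes with the largest change were named, or the gene with the smallest p where none was called. The genes most alike were those with the highest Pearson r among genes with a mean value of at least 1. Alternatives covered pseudocounts, a low-value filter, scalings, 2-group fits, the unit as a random block, ribosomal RNA, length and GC correction, and each animal left out. Leaving out libraries by Rn18s-rs5 or by length shift was chosen after seeing the data. The labels name animals singly, so p-values measure the spread between animals.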

Additional observations from a re-analysis of the deposited data

Results flagged for a closer look

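In the sham group, Gja1 read 115.6 normalized CPM in animal A11-4, with the nearest other animal at 135.4. At 7 dpi, Aldh1l1 read 32.6 in animal A7-4, with the nearest at 40.5. Both gaps passed Dixon's 95% limit, among 60 gene and group pairs examined, and chance passes about 1 in 20.

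Direct tests between stroke groups separated 28 dpi from earlier time points (limma, log2 difference, 28 dpi minus the earlier group). Against 4 dpi the values were -0.40 for Aqp4, -0.39 for Gjb6, -0.38 for Aldh1l1, -0.31 for Aldoc and -0.26 for Gja1. Against 7 dpi they were -0.37 for S100b, -0.31 for Gjb6, -0.31 for Aldoc, -0.27 for Aqp4 and 0.27 for Slc1a2. Against 14 dpi they were -0.54 for S100b, -0.43 for Aldoc, -0.39 for Gjb6, -0.27 for Glul and 0.40 for Slc1a2. After correction for length and GC content, Slc1a2 stood at 0.01 and S100b at -0.23 against 7 dpi, not called (limma, adjusted p = 0.903 and 0.170). Gjb6, Aldoc and Aqp4 stayed called there, where 28.4% of all genes were. Against 14 dpi the corrected Slc1a2 stood at 0.03, not called (limma, adjusted p = 0.768). All 15 differences use the same 5 animals at 28 dpi, which include the 3 libraries with the largest long-to-short shifts, and without those 3 libraries 0 were called, on 2 animals at 28 dpi, where 0.00588%, 0.00588% and 7.61% of all genes were called against 4, 7 and 14 dpi. In that fit Aqp4 stood at -0.41 against 4 dpi and -0.27 against 7 dpi and Aldh1l1 at -0.38 against 4 dpi, while Aldoc stood at -0.11, -0.10 and -0.22 and Gjb6 at -0.20, -0.12 and -0.20 against 4, 7 and 14 dpi.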

How the results depend on the processing

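Counts of the 10 genes called rested on few libraries. Against sham at 28 dpi (6 called), 4 were called after quantile normalization (Slc1a2 at 0.18 and Aldh1l1 at -0.16 were not; limma, adjusted p = 0.240 and 0.0964), 4 after median centring (Aldh1l1 at -0.17 and Glul at -0.21 were not; limma, adjusted p = 0.0932 and 0.0670), 7 with the unit as a random block (Gja1 added), 3 with only the 2 groups compared, 0 with ribosomal RNA as a covariate, 0 without the animals with Rn18s-rs5 above 200000 (1 animal left at 28 dpi, assumed to vary like the others) and 0 without the 3 shifted libraries (2 animals left). Leaving out 1 animal gave 2 to 7, with 2 without sham A12-1, 28 dpi A3-3 or 28 dpi A4-4, and Aqp4 and Gjb6 stayed called in 29 of 29 such fits. The share of all genes called moved too, from 24.9% to 22.7% after quantile normalization, 23.5% after median centring, 28.8% with the block, 13% with only the 2 groups, 12.9% without A12-1, 13.2% without A3-3, 19.4% without A4-4, 0.0294% without high Rn18s-rs5 and 0% in the other 2 fits. At 28 dpi against 4 dpi (5), the counts were 2 with only the 2 groups (2.02% of all genes), 0 with the covariate (0%) and 0 without the shifted libraries (0.00588%). With 1 animal left out they were 2 to 6 (2 without 4 dpi A10-1, 3 without 28 dpi A3-3, with 5.94% and 6.81% of all genes called against 19.9%). Against 7 dpi (5) they were 1 with the covariate, 3 after length and GC correction and 0 without the shifted libraries. All genes called went from 31.2% to 12.1%, 28.4% and 0.00588% in these fits. With 1 animal left out the counts were 2 to 6 (3 without 7 dpi A7-3 or 28 dpi A3-3, 2 without A4-4), and 24.8%, 21.5% and 25.8% of all genes were called without those animals. Against 14 dpi (5) they were 0 without high Rn18s-rs5, 0 without the shifted libraries and 5 to 6, where 2.95% and 7.61% of all genes were called in the first 2 fits, against 43% with all animals. Against 42 dpi (0), 1 was called without 28 dpi A3-1, a range of 0 to 1, where all genes called went from 1.94% to 7.52%. Over all groups (7), the counts were 4 with the covariate, 1 without the shifted libraries and 6 to 8 with 1 animal left out. All genes called went from 31.6% to 20.5% and 4.97% in the first 2 fits. Fewer animals remain in the fits that leave libraries out; the cause was otherwise not tested. At 4, 7, 14 and 42 dpi against sham 0 were called under every alternative run. The ratios also gave 0, but 1 ratio on its own could not pass at this number of animals and tests, so this says nothing of their stability. No direction of a called value reversed. No paired analysis was possible because the labels number animals within units that are nearly nested in the time points. Read depth is unknown and limits low genes.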
